A study of Mus musculus with 2 samples.

Results

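The 31 genes described here are 21 immediate early genes and 10 heat shock genes, taken by symbol from the 53698 gene entries of the series. All 31 are annotated as protein-coding, and each was found in both libraries. The rule lists them by symbol, for what they are known to do, and uses no measured value, although earlier results of these data were known when they were listed. The immediate early genes are Fos, Fosb, Fosl1, Fosl2, Jun, Junb, Jund, Atf3, Egr1, Egr2, Ier2, Ier3, Ier5, Dusp1, Zfp36, Nr4a1, Btg2, Klf2, Klf4, Klf6 and Socs3. The heat shock genes are Hspa1a, Hspa1b, Hspa8, Hsph1, Dnaja1, Dnajb1, Hsp90aa1, Hsp90ab1, Hspe1 and Hspd1.

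Immediate early genes are transcribed within minutes of a stimulus, because the factors that switch them on are already present in the cell. Most encode transcription factors, above all the FOS and JUN proteins that pair to form AP-1, and others encode inhibitors that shut the response down again. Heat shock genes encode chaperones that keep other proteins folded, and heat shock factor induces many of them when proteins unfold. Both sets are known to be induced in many tissues, kidney among them, by injury and also by warm enzymatic digestion.

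The study set single-cell RNA profiles from sham-operated mouse kidney beside profiles from fibrotic kidney. Kidney cells of FVBN mice, labelled PDGFRa+b+ for the PDGF receptors alpha and beta, were profiled with droplet-based 3′ chemistry, in which a random barcode, the UMI, marks every captured molecule. There was 1 library labelled sham and 1 labelled UUO, taken 10 days after unilateral ureteral obstruction, in which the ureter is tied off and the kidney scars. Kidney of either group was digested with Liberase TL and DNAse for 30 min at 37 °C with mechanical dissociation, so the warm digestion was common to both groups. The number of animals behind a library is not given in the labels. Undigested tissue was not analysed here, so the level the genes had before digestion was not measured.

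With 1 library per group, no test between the groups was possible and no p-value is given. Each 95% interval covers counting error alone, and cells of a library are not replicates. Filters (a minimum of 500 UMIs and 300 genes, a maximum of 20% mitochondrial UMIs) kept 10656 of 10812 barcodes labelled sham and 1052 of 1291 labelled UUO, with a median of 7824 and 4154 UMIs per cell. The libraries shared 16 barcodes, 13 of them kept in both. Some injury transcripts went against the labels: among fibroblast-like cells, Spp1 was at 12428 counts per 1000000 UMIs (CPM) in the library labelled sham and 181 CPM in the library labelled UUO, and Timp1 at 704 and 68.2 CPM. Others went with them, with Ctgf at 179 and 730 CPM and Postn at 79.0 and 150 CPM. Directions below are therefore those of the library labelled sham or UUO.

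Cells were put into classes by marker genes that hold no member of either list. Fibroblast-like cells, which expressed Col1a1, Col3a1 and Dcn most, made up 9210 of the kept cells labelled sham (86.4%) and 724 of those labelled UUO (68.8%). Levels are CPM of UMIs summed over the cells of a class. Each 3′ tag stands for a molecule, so levels were not divided by transcript length, and how well each 3′ end is captured was not measured. Fewer transcripts of a gene per cell and a larger share of other transcripts cannot be told apart in CPM.

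The stretches upstream of 7 members are shown as examples that hold letters matching the motifs of factors known to induce such genes. They come from RefSeq, build GRCm38.p6, 5′ to 3′ on the strand of the gene, and end at the base before the RefSeq start, except that of Dusp1. For Atf3, Egr2 and Dusp1 that start lies inside the longer gene of the GENCODE annotation. Capitals mark the match to the motif searched on both strands. For Atf3 (chr1:191183334-191183583, minus strand) and Fos (chr12:85473640-85473889, plus strand), capitals mark the core of the cyclic AMP response element, TGACG or CGTCA.
Atf3: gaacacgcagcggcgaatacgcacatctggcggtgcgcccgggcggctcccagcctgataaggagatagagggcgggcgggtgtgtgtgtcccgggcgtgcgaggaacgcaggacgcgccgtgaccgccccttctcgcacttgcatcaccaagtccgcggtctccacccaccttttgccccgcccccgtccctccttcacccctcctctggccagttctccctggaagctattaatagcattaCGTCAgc
Fos: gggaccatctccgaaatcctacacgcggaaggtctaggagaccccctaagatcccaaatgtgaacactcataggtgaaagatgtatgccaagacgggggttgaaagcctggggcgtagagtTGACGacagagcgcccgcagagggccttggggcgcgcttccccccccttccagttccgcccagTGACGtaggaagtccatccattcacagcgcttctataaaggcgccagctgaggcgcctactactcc
For Dusp1 (chr17:26508523-26508722, minus strand, the 50 bases next to the start left out) and Btg2 (chr1:134079156-134079405, minus strand), capitals mark the full cyclic AMP response element, TGACGTCA.
Dusp1: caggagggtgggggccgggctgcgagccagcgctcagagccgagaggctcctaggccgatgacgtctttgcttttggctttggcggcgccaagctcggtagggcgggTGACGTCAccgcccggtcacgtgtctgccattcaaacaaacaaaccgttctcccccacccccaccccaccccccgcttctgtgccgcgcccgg
Btg2: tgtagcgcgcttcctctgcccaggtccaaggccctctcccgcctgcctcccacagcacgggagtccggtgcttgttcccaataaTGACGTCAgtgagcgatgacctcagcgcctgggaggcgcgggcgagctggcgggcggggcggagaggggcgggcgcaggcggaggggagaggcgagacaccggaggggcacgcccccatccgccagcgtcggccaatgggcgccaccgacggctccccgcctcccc
For Egr2 (chr10:67537619-67537868, plus strand), capitals mark a CArG box, the site of serum response factor.
Egr2: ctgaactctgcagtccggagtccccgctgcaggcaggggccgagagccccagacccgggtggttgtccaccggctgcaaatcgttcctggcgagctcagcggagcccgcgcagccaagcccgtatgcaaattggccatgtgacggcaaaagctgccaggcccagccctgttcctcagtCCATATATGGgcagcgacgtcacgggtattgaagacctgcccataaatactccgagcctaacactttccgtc
For Hspa1a (chr17:34972157-34972406, minus strand) and Hspa1b (chr17:34959239-34959488, minus strand), capitals mark a pair of inverted heat shock factor units, GAANNTTC or TTCNNGAA.
Hspa1a: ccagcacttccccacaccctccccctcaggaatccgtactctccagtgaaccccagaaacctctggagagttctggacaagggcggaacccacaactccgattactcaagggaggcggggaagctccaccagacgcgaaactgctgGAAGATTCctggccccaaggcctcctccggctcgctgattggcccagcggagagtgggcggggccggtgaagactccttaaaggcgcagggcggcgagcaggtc
Hspa1b: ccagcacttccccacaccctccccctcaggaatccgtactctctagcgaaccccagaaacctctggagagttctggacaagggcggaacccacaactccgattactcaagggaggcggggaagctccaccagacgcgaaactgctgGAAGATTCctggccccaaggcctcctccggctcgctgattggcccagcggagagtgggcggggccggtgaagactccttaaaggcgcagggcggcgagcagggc
The matches begin 7 bases before the start in Atf3, 129 and 66 bases before it in Fos, 143 bases in Dusp1, 166 bases in Btg2, 72 bases in Egr2, and 104 bases in both Hspa1a and Hspa1b.

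Windows of 250 bases before to 50 after the RefSeq start were found for 18 of 21 immediate early and 7 of 10 heat shock members. The heat shock pair was in 5 of the 7 heat shock windows (Hspa1a, Hspa1b, Hsph1, Hspe1 and Hspd1) and in 2 of the 18 immediate early windows (Fosl2 and Jun), against 15.1% of the 32851 windows of all genes. A run of 3 alternating units, in which each pair shares a unit with the next, was in the windows of Hsph1, Hspe1 and Hspd1 and in 0.603% of all windows. The Hspe1 and Hspd1 windows overlap, since the genes lie head to head, and are not separate counts. The core TGACG or CGTCA was in 10 immediate early and 3 heat shock windows, against 20.8% of all, and includes every match to the full element. That full element was in the Dusp1 and Btg2 windows alone among the members, and in 1.79% of all windows. The CArG box was in the Egr2 and Zfp36 windows and in 1.63% of all. These matches describe the letters only.

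In fibroblast-like cells, 2 heat shock co-chaperone or partner genes and 1 immediate early gene were higher by 2-fold or more in the library labelled UUO, and 1 immediate early gene was lower by as much, against 12.2% and 4.91% of the 9631 genes compared. Atf3, Dnajb1 and Hsph1 were the higher genes and Egr2 the lower. The other 18 immediate early members that reached 10 CPM differed by less than 2-fold in either direction, and the heat shock members leaned higher in the library labelled UUO. Summed over the list, the immediate early genes stood at 16642 CPM in the library labelled sham and 19859 CPM in the library labelled UUO, 1.19-fold higher (95% interval 1.185 to 1.202). The heat shock genes stood at 3399 and 4892 CPM, 1.44-fold higher (1.42 to 1.46). The direction for the immediate early genes turned on how cells were weighted: averaged with equal weight for each cell, their share of UMIs was 1.77% for cells labelled sham and 1.71% for cells labelled UUO.

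Among the AP-1 genes, Junb, which partners FOS proteins, was the highest at 3000.1 CPM in the library labelled sham and 3824 CPM in the library labelled UUO. Fos stood at 2986 and 3646 CPM, a ratio of 1.22 (1.201 to 1.241) that was below 1 when cells were weighted equally. Jun, the main activating partner, stood at 1779 and 2481 CPM, 1.39-fold higher (1.37 to 1.42). These AP-1 subunits thus held the top of the list in both libraries. Fosb, a close relative of Fos, stood at 342 and 643 CPM, 1.88-fold higher (1.81 to 1.96). Jund, the JUN member with the steadiest expression in resting cells, stood at 844 and 1098 CPM, 1.30-fold higher (1.26 to 1.34). The FOS-related genes Fosl1 and Fosl2 were low: Fosl2 stood at 90.7 and 72.2 CPM, and Fosl1, with 54 and 7 UMIs in all, was under the 10 CPM needed to be counted.

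Atf3, a stress-induced factor of the ATF/CREB family on chromosome 1 (191170296 to 191218039, GRCm38, minus strand), differed most of all members. It stood at 106 CPM in the library labelled sham and 479 CPM in the library labelled UUO, 4.51-fold higher (4.29 to 4.73). Cells with Xist and no Y-linked UMI gave 103 and 463 CPM, and cells with a Y-linked UMI and no Xist gave 110 and 458 CPM, so the difference was near the same size in both sets of cells.

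The zinc finger factors split. Egr1, the growth factor response gene often read as a marker of recent stimulation, stood at 623 and 910 CPM, 1.46-fold higher (1.41 to 1.51) in the library labelled UUO. Its relative Egr2 (chromosome 10, 67535475 to 67542188, plus strand) stood at 109 and 49.2 CPM, 2.22-fold lower (1.93 to 2.55). The 2 EGR genes therefore lay on opposite sides in the same cells. Klf4, a factor tied to growth arrest, stood at 266 and 419 CPM, 1.57-fold higher (1.497 to 1.651). Klf2, known as a flow-responsive gene of endothelium, stood at 1076 and 654 CPM, 1.64-fold lower (1.58 to 1.71). Klf6, a broadly expressed injury-responsive factor, stood at 199.8 and 173 CPM. Nr4a1, an orphan nuclear receptor, stood at 340 and 526 CPM, 1.55-fold higher (1.48 to 1.62).

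Among the remaining members, several of which end or limit the response, none reached 2-fold over all fibroblast-like cells. Dusp1, the phosphatase that inactivates MAP kinases, stood at 1109 and 1059 CPM, and Zfp36, which speeds the decay of unstable mRNAs, at 647 and 648 CPM. Socs3, the feedback inhibitor of cytokine receptors, stood at 993 and 893 CPM, and Btg2, an antiproliferative gene, at 643 and 714 CPM. Ier2 stood at 1083 and 1165 CPM and Ier5, linked to heat shock factor activity, at 162 and 226 CPM. Ier3, a regulator of cell survival, stood at 242 and 178 CPM, 1.36-fold lower (1.27 to 1.47) in the library labelled UUO. The ratios of Fos, Ier2, Dusp1, Zfp36, Btg2, Socs3, Hsp90ab1 and Hspe1 lay above 1 under some ways of scaling, weighting or choosing cells and below 1 under others. The other 23 members kept their direction under all 16 alternatives tried, none of which compared cells at like depth. From 500 to 2000 UMIs per cell, some of the 23, Jun and Hspa1a among them, had ratios below 1. Others, Atf3 and Hspa8 among them, kept their direction there.

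Among the heat shock genes, the co-chaperone Dnajb1 (chromosome 8, 83608193 to 83612653, plus strand), which delivers clients to HSP70, differed most. It stood at 148 CPM in the library labelled sham and 447 CPM in the library labelled UUO, 3.02-fold higher (2.87 to 3.17). Hsph1, the HSP110 nucleotide exchange factor, stood at 12.4 and 31.8 CPM, 2.57-fold higher (2.13 to 3.08). The 2-fold call was lost in cells with a Y-linked UMI and no Xist, where Hsph1 stood at 13.6 and 16.4 CPM. Both genes act on HSP70, and the HSP70 genes themselves differed less. The constitutive HSP70 gene Hspa8 stood at 1042 and 1526 CPM, 1.47-fold higher (1.428 to 1.503). The inducible Hspa1a stood at 506 and 714 CPM, 1.41-fold higher (1.36 to 1.46), and its copy Hspa1b at 21.1 and 40.7 CPM. Dnaja1, another HSP70 co-chaperone, stood at 320.2 and 546 CPM, 1.71-fold higher (1.63 to 1.78). Hsp90aa1, the inducible HSP90 gene, stood at 267 and 424 CPM, 1.59-fold higher (1.51 to 1.67), while the constitutive Hsp90ab1 stood at 721 and 767 CPM. The mitochondrial chaperonin genes lay closer together: Hspe1 stood at 268 and 278 CPM and Hspd1 at 92.3 and 116 CPM.

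**Figure D1:**
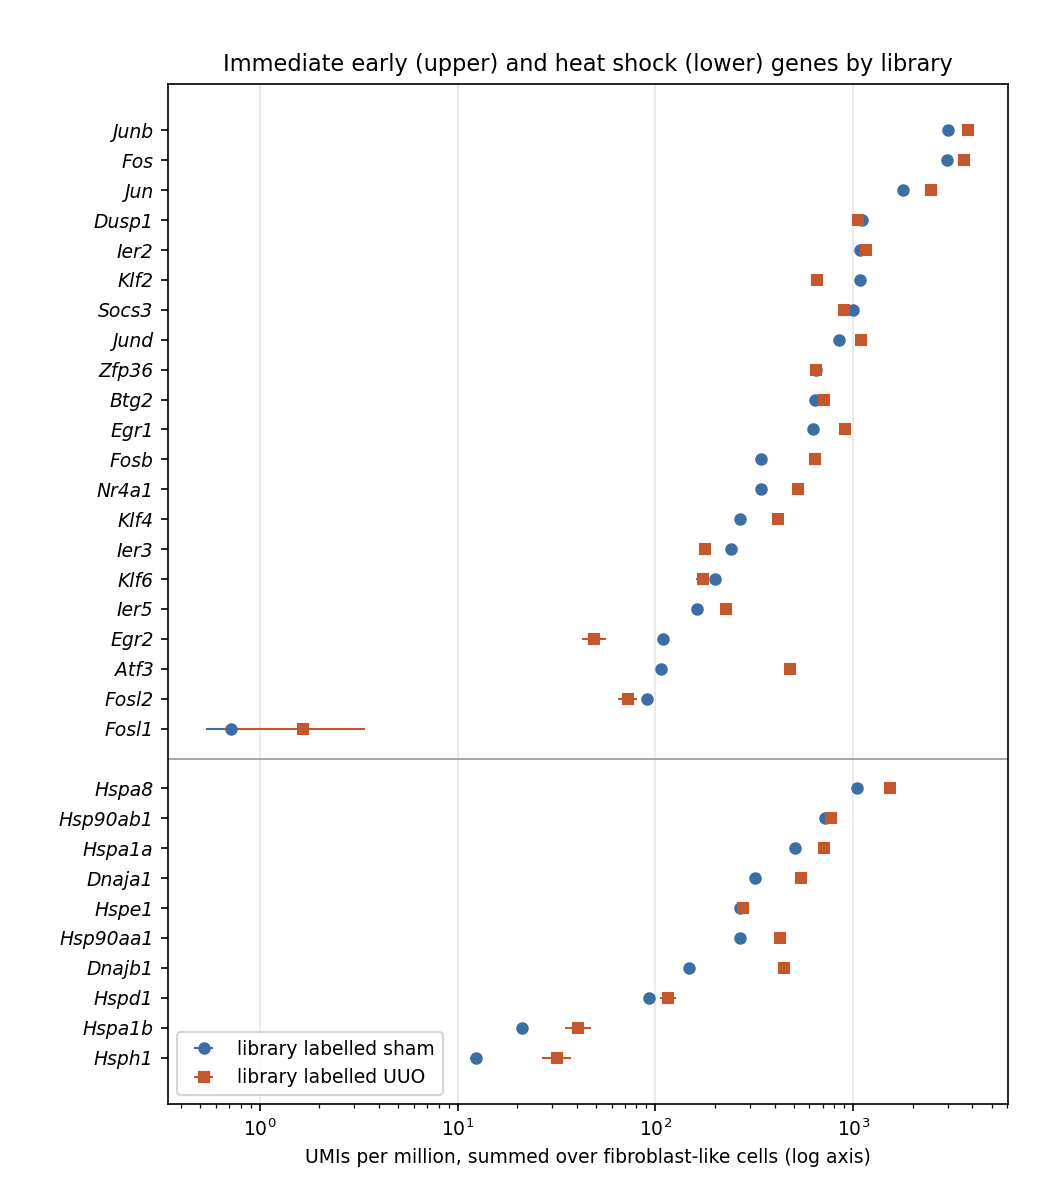
Level of each member in CPM (log axis), summed over fibroblast-like cells of the library labelled sham (circles) and UUO (squares), with exact Poisson 95% intervals. Atf3 lies at 106 and 479 CPM and Egr2 at 109 and 49.2 CPM, while most members of both lists sit within 2-fold.

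Hspa1a and Hspa1b are near-identical copies on chromosome 17 and cannot be fully told apart. Their coding sequences match at 99.6% of 1926 aligned bases and their promoter windows at 296 of 300. Their 3′ untranslated regions, where the tags fall, match at 78.3% of aligned bases. Estimated counts split shared UMIs, so 5.53% of the nonzero values of Hspa1a and 25.2% of those of Hspa1b were not whole. Summed, the pair stood at 527 and 755 CPM, 1.43-fold higher (1.38 to 1.48) in the library labelled UUO. Hspa8, with 24.1% of values not whole, and Hsp90aa1, with 12.6%, likewise had values split in part, whereas 23 of the 31 members had whole values throughout. Overlapping genes were annotated for 12 members. Junb overlaps Prdx2 on the other strand, which stood at 515 and 226 CPM. All Junb values were whole, and whether tags of either gene were counted for the other was not tested.

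Among the 9631 genes that reached 10 CPM in a library, 12.2% were higher by 2-fold or more in the library labelled UUO and 4.91% lower by as much, counted after adding 5 CPM to each level. Of the 20 immediate early members that passed this level, 1 was higher and 1 lower, which is near or below the share among all genes. Of the 10 heat shock members, 2 were higher and none lower, against the same 12.2% and 4.91%. The median log2 difference was 0.22 over immediate early members, 0.60 over heat shock members and -0.02 over all genes. Scaling by edgeR's TMM factors moved the median of all genes to -0.27, of the immediate early members to -0.06 and of the heat shock members to 0.33. Under it the share of higher genes among all those 2-fold apart went from 71.4% to 54.7%.

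Further genes of each response were taken from lists that hold no member. Of 47 other early response genes, 39 passed 10 CPM, 12 of them at least 2-fold higher and 1 lower, against 12.2% and 4.91% of all genes, with a median log2 difference of 0.55. The highest were the chemokine gene Cxcl1, at 88.1 and 354 CPM, the clock gene Per1, at 10.3 and 49.2 CPM, and the interferon factor gene Irf1, at 52.0 and 175 CPM. The lowest were Bhlhe40, a clock and hypoxia repressor gene, at 373 and 49.4 CPM, Gadd45a, a growth arrest gene, at 179 and 93.4 CPM, and the pseudokinase gene Trib1, at 69.5 and 42.8 CPM. Of 40 other chaperone and heat shock genes, 39 passed, 1 of them at least 2-fold higher and none lower, against the same 12.2% and 4.91%. Their median was 0.14, with 23 higher and 16 lower by any amount in the library labelled UUO. Among the highest were the HSP70 partner Bag3, at 33.8 and 69.4 CPM, and the ubiquitin gene Ubb, at 1739 and 3124 CPM. Neither reached 2-fold after adding 5 CPM. The lowest were the chaperonin subunit genes Tcp1, Cct4 and Cct2, with Tcp1 at 106 and 73.6 CPM.

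Haemoglobin transcripts, which these cells do not make, moved with the comparison: they summed to 19.5 CPM in fibroblast-like cells labelled sham and 353 CPM in those labelled UUO. Depth differed too, with a median of 8229.5 and 4844 UMIs per fibroblast-like cell. The part of free RNA in these differences was not tested. At like depth the direction of the immediate early sum depended on the depth chosen. From 500 to 2000 UMIs per cell it was 18534 CPM labelled sham and 13090 CPM labelled UUO, from 2000 to 4000 UMIs 21704 and 13382 CPM, and from 4000 to 8000 UMIs 17801 and 16421 CPM. The heat shock sum in these bins was 3209 and 3156 CPM, 3740 and 3479 CPM, and 3183 and 4125 CPM. Between 8000 and 16000 UMIs per cell, the immediate early sum was 16337 and 22883 CPM, 1.40-fold higher (1.39 to 1.41), and the heat shock sum 3414 and 5514 CPM, 1.62-fold higher (1.59 to 1.64). In that bin Fosb, Atf3, Hsph1 and Dnajb1 were at least 2-fold higher, which is 2 of 20 immediate early and 2 of 10 heat shock members against 12.1% of 9453 genes.

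Depth was related to the genes in opposite directions in the libraries. Ordered from the shallowest to the deepest quartile of fibroblast-like cells, the immediate early sum went from 20817 through 17819 and 17244 to 15024 CPM in the library labelled sham. For the library labelled UUO it went from 12985 through 14777 and 18200 to 23032 CPM. The libraries thus crossed, with the library labelled UUO lower in its shallowest quartile and higher in its deepest. Quartiles were cut within each library and lay at unlike depth. The median was 2351 UMIs labelled sham and 1228 labelled UUO in the shallowest quartile, and 13297 and 11318 in the deepest. With stricter gates for fibroblast-like cells, the log2 difference of the deepest from the shallowest quartile in the library labelled UUO was 0.33 rather than 0.83. The heat shock sum ran from 3590.5 to 3497 CPM in the library labelled sham and from 3021 to 5766 CPM in the library labelled UUO. For the library labelled sham, Hspa1a alone among measured members was at least 2-fold lower in the deepest quartile, at 912 CPM in shallow and 452 CPM in deep cells, against 5.02% of 9232 genes. Within the library labelled UUO, 4 immediate early members (Fos, Jun, Egr1 and Klf4) and 3 heat shock members (Hspa1a, Dnajb1 and Hsp90aa1) stood higher by 2-fold or more in the deepest quartile, against 5.50% of 10086 genes. Dnajb1 went from 177 to 578 CPM there, and Fos from 2164 to 4445 CPM.

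Other properties of the cells moved with depth. Within the library labelled sham, the median mitochondrial share of UMIs was 6.69% in the shallowest quartile and 1.99% in the deepest. In cells labelled UUO, fibroblast subgroups marked by Clec3b, Car3 or Ptx3, described below, made up 16.6% of the shallowest and 41.4% of the deepest quartile. The part of either in the trend was not tested.

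The share of UMIs from mitochondrially encoded genes is often read as a sign of damaged cells. In cells labelled sham, the immediate early sum was 16592 CPM at a share up to 2.5%, 14969 CPM from 2.5 to 5%, 22108 CPM from 5 to 10% and 20329 CPM from 10 to 20%. It was 15266 CPM in the 37 cells over 20%, which the filter left out elsewhere. The highest level thus lay at 5 to 10%, in cells with a median of 2906 UMIs, against 9752 UMIs in cells up to 2.5%. Between these bins Hspa1a went from 468 to 1036 CPM, 2.21-fold higher (2.14 to 2.29), whereas Hspe1 went from 278 to 170 CPM. Hspa1a was the single member at least 2-fold higher, against 4.05% of 9312 genes. Between cells above and below the library's median mitochondrial share, the log2 difference of the immediate early sum was -0.11, so the direction turned on where cells were split.

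Among cells labelled UUO the order was different. The immediate early sum was 21645 CPM at a mitochondrial share up to 2.5%, 12261 CPM from 2.5 to 5% and 15401 CPM from 5 to 10%. From the lowest to the next bin, Atf3 went from 541 to 223 CPM, Socs3 from 999 to 437 CPM, Egr2 from 55.2 to 22.7 CPM and Dnajb1 from 503 to 207 CPM. These 3 immediate early members and 1 heat shock member were at least 2-fold lower, against 1.31% of 9514 genes. Clec3b, Car3 and Ptx3 subgroups made up 28.9% of the lowest bin and 17.7% of the next, and their part in the difference was not tested.

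**Figure D2:**
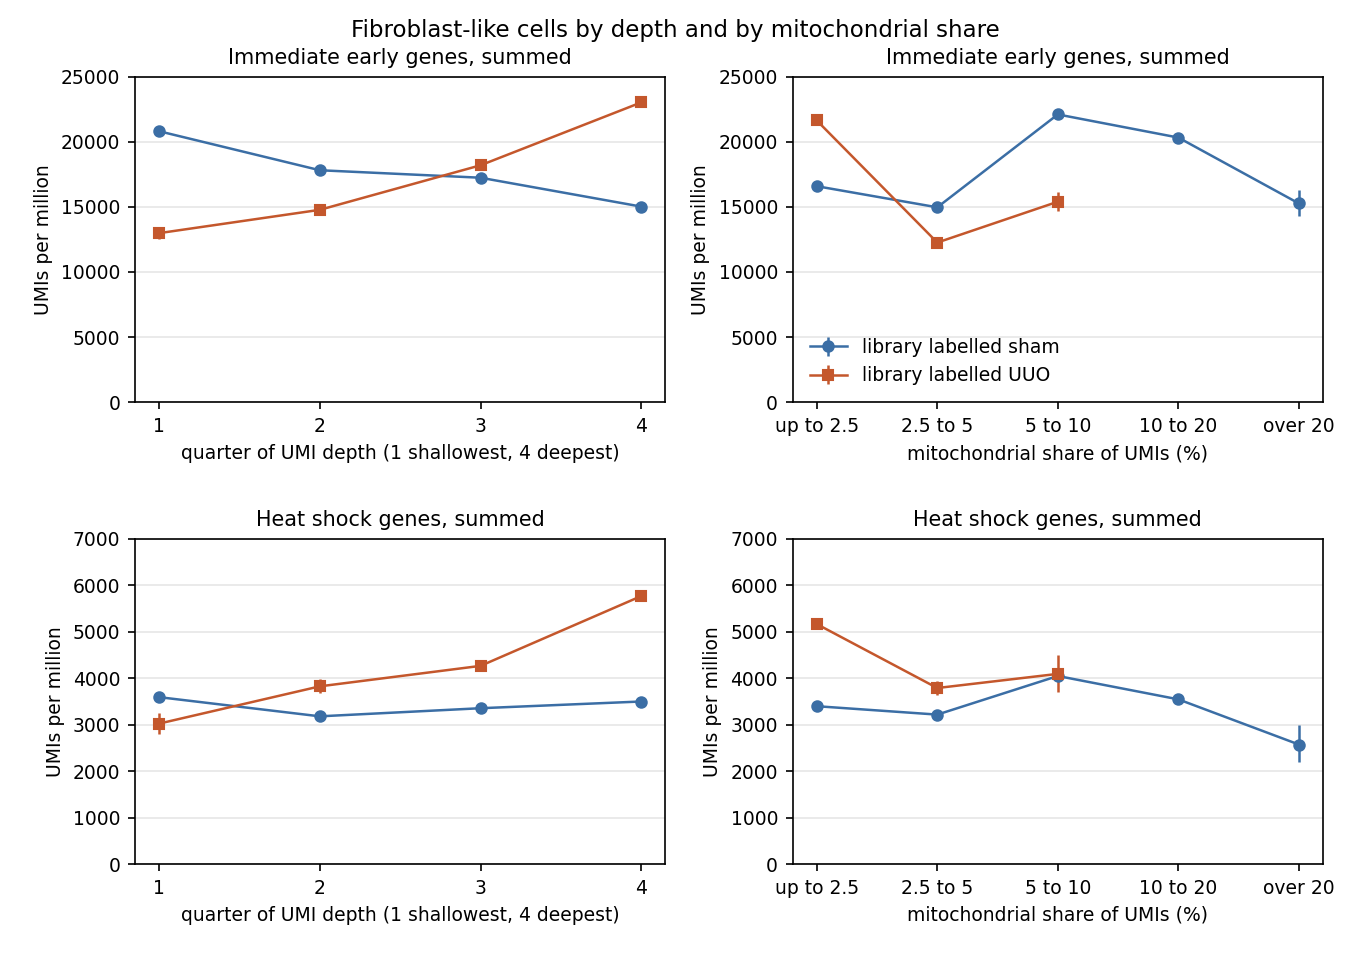
Summed CPM of the immediate early (top) and heat shock (bottom) genes in fibroblast-like cells, by quartile of UMI depth (left) and by mitochondrial share (right). Quartiles were cut within each library and lie at unlike depth. Points are levels in the library labelled sham (circles) and UUO (squares) with exact Poisson 95% intervals, and bins under 20 cells are not drawn. The immediate early lines cross, from 20817 and 12985 CPM in the shallowest quartile to 15024 and 23032 CPM in the deepest.

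Fibroblast subgroups, named by the marker genes they carry, differed widely in immediate early level in the library labelled UUO. The Car3 Rbp4 subgroup (50 cells) reached 33318 CPM and the Clec3b Sfrp4 Inmt subgroup (74 cells) 31309 CPM. The Ptx3 C3 Sfrp4 subgroup (63 cells) stood at 25273 CPM and the 340 cells of no subgroup at 19416 CPM. The Igfbp3 Adamts5 Fbln5 subgroup (145 cells) stood at 7275 CPM and the Clca3a1 Agtr1a subgroup (42 cells) at 6091 CPM. The heat shock sums lay closer together, from 6247 CPM in the Car3 Rbp4 subgroup to 3735 CPM in the Clca3a1 and 3365 CPM in the Igfbp3 subgroup. Among sets of at least 20 cells labelled sham the range was narrower, from 13339 CPM in the Nppc Gpm6a Alx1 subgroup (821 cells) to 20429 CPM in the Igfbp3 subgroup (24 cells). This limit left out the Car3 Rbp4 subgroup, at 26458 CPM in 8 cells labelled sham. It also left out the Clec3b Sfrp4 Inmt subgroup, at 21220 CPM in 2 cells.

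Between the Clec3b and Igfbp3 subgroups of the library labelled UUO, 18 of 20 immediate early members stood higher by 2-fold or more in the Clec3b subgroup, all but Ier3 and Ier5, against 6.93% of 10065 genes. Klf4 differed most, at 846 CPM in the Clec3b and 70.05 CPM in the Igfbp3 subgroup, 12.1-fold (8.92 to 16.7). Fosb was at 1160.4 and 129.7 CPM, 8.95-fold (7.13 to 11.4), and Atf3 at 766 and 99.9 CPM, 7.67-fold (5.89 to 10.1). Fos was at 6093 and 1213 CPM. Of the heat shock genes, 2 of 10 were at least 2-fold higher. Dnajb1 was at 728 and 124 CPM, 5.88-fold (4.62 to 7.57), and Hspa8 at 2132 and 967 CPM, 2.20-fold (1.99 to 2.44), whereas Hspa1a was at 774 and 516 CPM.

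The difference between libraries was not of 1 sign across subgroups present in both. In the Clca3a1 subgroup the immediate early sum was 13719 CPM in the library labelled sham and 6091 CPM in the library labelled UUO, 2.25-fold lower (2.14 to 2.37). In the Igfbp3 subgroup it was 20429 and 7275 CPM, 2.81-fold lower (2.66 to 2.97). In the Ptx3 subgroup it was 20317 and 25273 CPM, 1.24-fold higher (1.21 to 1.28), and in cells of no subgroup 17754 and 19416 CPM, 1.09-fold higher (1.08 to 1.11). The heat shock sum was higher in the library labelled UUO in all 4 of these sets, by 1.36-fold in Clca3a1, 1.27-fold in Igfbp3, 1.89-fold in Ptx3 and 1.41-fold in cells of no subgroup. The immediate early and heat shock sums thus went opposite ways in the Clca3a1 and Igfbp3 cells. In the Igfbp3 cells the heat shock sum rested on 228 UMIs labelled sham, and Hspa8 stood at 1045 and 967 CPM. The intervals of all single heat shock members there included 1, except Hspa1b and Hsp90aa1. Igfbp3 cells had a median of 2684.5 UMIs and 3.83% mitochondrial share labelled sham, against 3676 UMIs and 2.11% labelled UUO. The part of depth and mitochondrial share was not tested.

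In the Clca3a1 subgroup, 11 of 20 immediate early members were lower by 2-fold or more in the library labelled UUO, against 7.27% of 10217 genes. Socs3 went from 951 to 197 CPM and Zfp36 from 626 to 175 CPM, while Atf3 stood at 62.1 and 102 CPM and Hspa1a at 373 and 689 CPM. No immediate early and 1 heat shock member, Hsph1, at 6.87 and 25.5 CPM, was at least 2-fold higher, against 14.5%. In the Igfbp3 subgroup 14 of 20 were at least 2-fold lower, against 19.0% of 11205 genes, with Socs3 at 1289 and 203 CPM and Fos at 4297 and 1213 CPM. None of them was higher, while 3 heat shock members were, against 22.8%: Hsp90aa1 stood at 92.9 and 304 CPM, and Hspa1b and Hsph1 had no UMI in the 24 cells labelled sham. In the Ptx3 subgroup 1 immediate early member, Atf3, at 299.7 and 815 CPM, and 5 heat shock members were at least 2-fold higher, against 14.2% of 9437 genes. Another 2 immediate early members were at least 2-fold lower there, against 8.19%, with Egr2 at 113 and 23.5 CPM and Ier3 at 557 and 179 CPM. Those 5 were Hspa1a, at 163 and 579.5 CPM, and Hspa1b, Hspa8, Hsph1 and Dnaja1. In cells of no subgroup, the genes at least 2-fold higher were Atf3, Hsph1 and Dnajb1, 1 immediate early and 2 heat shock members, against 12.1% of 9691 genes, and no member was at least 2-fold lower, against 4.55%.

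**Figure D3:**
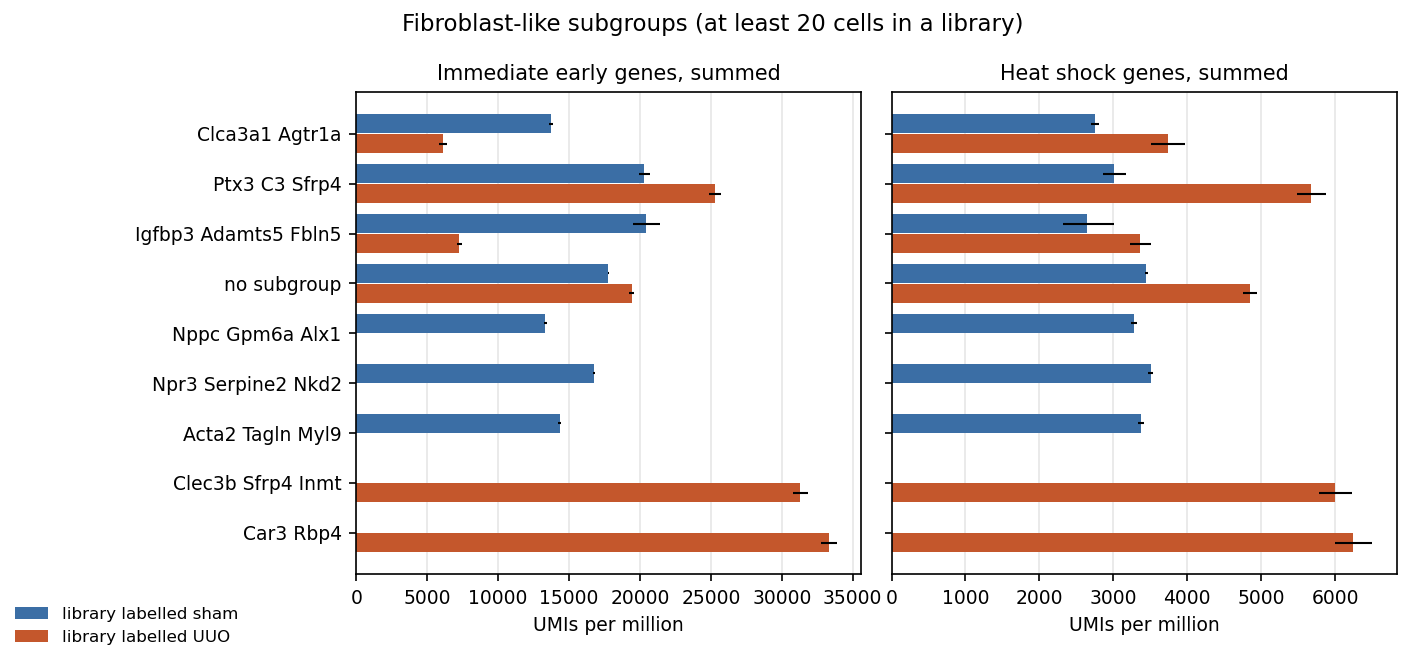
Summed CPM of the immediate early (left) and heat shock (right) genes by fibroblast subgroup, with exact Poisson 95% intervals. Subgroups with under 20 cells in a library are not drawn for it. For the library labelled UUO the immediate early bars run from 6091 CPM in the Clca3a1 Agtr1a subgroup to 33318 CPM in the Car3 Rbp4 subgroup.

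From cell to cell, the immediate early genes took a median of 1.44% of UMIs in cells labelled sham and 0.941% in cells labelled UUO. The 5th to 95th percentiles ran from 0.325 to 4.28% and from 0.268 to 4.86%. Cells with at least 1000 UMIs were thinned to that number, which left out 191 and 63 shallower cells. At least 30 immediate early UMIs were then found in 18.4% (exact Clopper-Pearson interval 17.6 to 19.2%) of cells labelled sham and 21.9% (18.8 to 25.3%) of cells labelled UUO. At most 5 were found in 19.0% (18.2 to 19.8%) and 33.0% (29.4 to 36.7%). The library labelled UUO thus held a larger share of low cells, and the intervals of the shares of high cells lay close together. At least 10 heat shock UMIs were found in 2.59% (2.28 to 2.94%) and 8.17% (6.20 to 10.5%).

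Members of the immediate early list were high in the same cells. Thinned cells were ordered by their immediate early UMIs with the gene in question left out, and the upper quartile was compared with the lower. Ordered by the whole list, these were 2396 and 2518 cells labelled sham, and 169 and 218 labelled UUO. All 20 measured members were higher by 2-fold or more in the upper cells of both libraries, with a median log2 difference of 2.495 and 2.799. In this whole-list order, 1.64% of 8594 genes labelled sham and 4.71% of 9666 labelled UUO were at least 2-fold higher. Fosb differed most, at 74.7 CPM in lower and 766 CPM in upper cells of the library labelled sham, 10.3-fold (9.74 to 10.8). Within the library labelled UUO it was at 59.2 and 1436 CPM, 24.3-fold. The smallest differences were of Fosl2 in the library labelled sham, 2.33-fold (2.172 to 2.499), and of Ier3 in the library labelled UUO, 2.46-fold (1.97 to 3.09). The ordering used thinned cells, while the levels are sums over their full UMIs, and depth differed between the upper and lower cells.

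Not all heat shock genes went with them. For the library labelled sham, Dnajb1 was at 51.9 CPM in cells low and 314 CPM in cells high for immediate early UMIs, 6.06-fold (5.67 to 6.47), and Hspa1a at 268 and 552 CPM, 2.06-fold (2.00 to 2.13). Those 2 of 10 members were at least 2-fold higher, against 1.64% of 8594 genes. By contrast, Hsp90ab1 was at 689 and 701 CPM, Hspd1 at 90.0 and 89.3 CPM and Hspe1 at 274 and 246 CPM. In cells labelled UUO, 6 of 10 members were at least 2-fold higher, against 4.71% of 9666 genes. Of the 8 members with over 100 UMIs in the compared cells, 5 were. There, Dnajb1 was at 119 and 1011 CPM, 8.49-fold (7.11 to 10.2), and Hspa1a at 279 and 1075 CPM, 3.85-fold (3.41 to 4.37). Of the other HSP70 partners, Dnaja1 was at 278 and 381 CPM and Hsph1 at 9.46 and 15.2 CPM in cells labelled sham.

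Ordering cells by heat shock UMIs gave weaker contrasts, but it rested on far fewer UMIs. In thinned cells the quartiles of heat shock UMIs were 2, 3 and 5 in both libraries. Those of immediate early UMIs were 7, 14 and 25 in cells labelled sham and 5, 11 and 27 in cells labelled UUO. The part of these low counts in the weaker contrasts was not tested. Within the library labelled sham, 0.0353% of 8506 genes (3 genes) were at least 2-fold higher in the upper quartile of cells, 2 of them members ordered in part by their own UMIs. With each gene left out of its own ordering, none of the 10 heat shock members reached 2-fold, nor did any of the 20 immediate early members. Among cells labelled UUO, 1.15% of 9617 genes were at least 2-fold higher. There, 6 of 20 immediate early members were, and, with each left out of its own ordering, 4 of 9 heat shock members.

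For the library labelled UUO, the cells high for immediate early UMIs differed in kind and depth from those low for them. Clec3b, Car3 and Ptx3 subgroups made up 53.3% of the upper and 8.72% of the lower cells, and Igfbp3 and Clca3a1 subgroups 1.78% and 49.1%. The median was 8189 UMIs in upper and 4077 in lower cells. In cells labelled sham the median was 7322 and 8315 UMIs. The part of subgroup and depth in the contrasts was not tested.

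Beyond the members, 17 genes were among the 30 with the highest upper-to-lower ratio in both libraries. They included Has1, Gm17056, Il6, Csrnp1, Adamts4, Cxcl1, Tnfsf9, Trib1, Nfkbiz, Tnfaip6, Hk2, Cdkn1a, Maff, Ppp1r15a, Ptx3 and Socs1. Has1, which makes hyaluronan, was at 21.003 CPM in lower and 281 CPM in upper cells labelled sham, and at 23.1 and 320.1 CPM in those labelled UUO. The cytokine gene Il6 was at 28.9 and 296 CPM, and at 19.5 and 388 CPM.

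**Figure D4:**
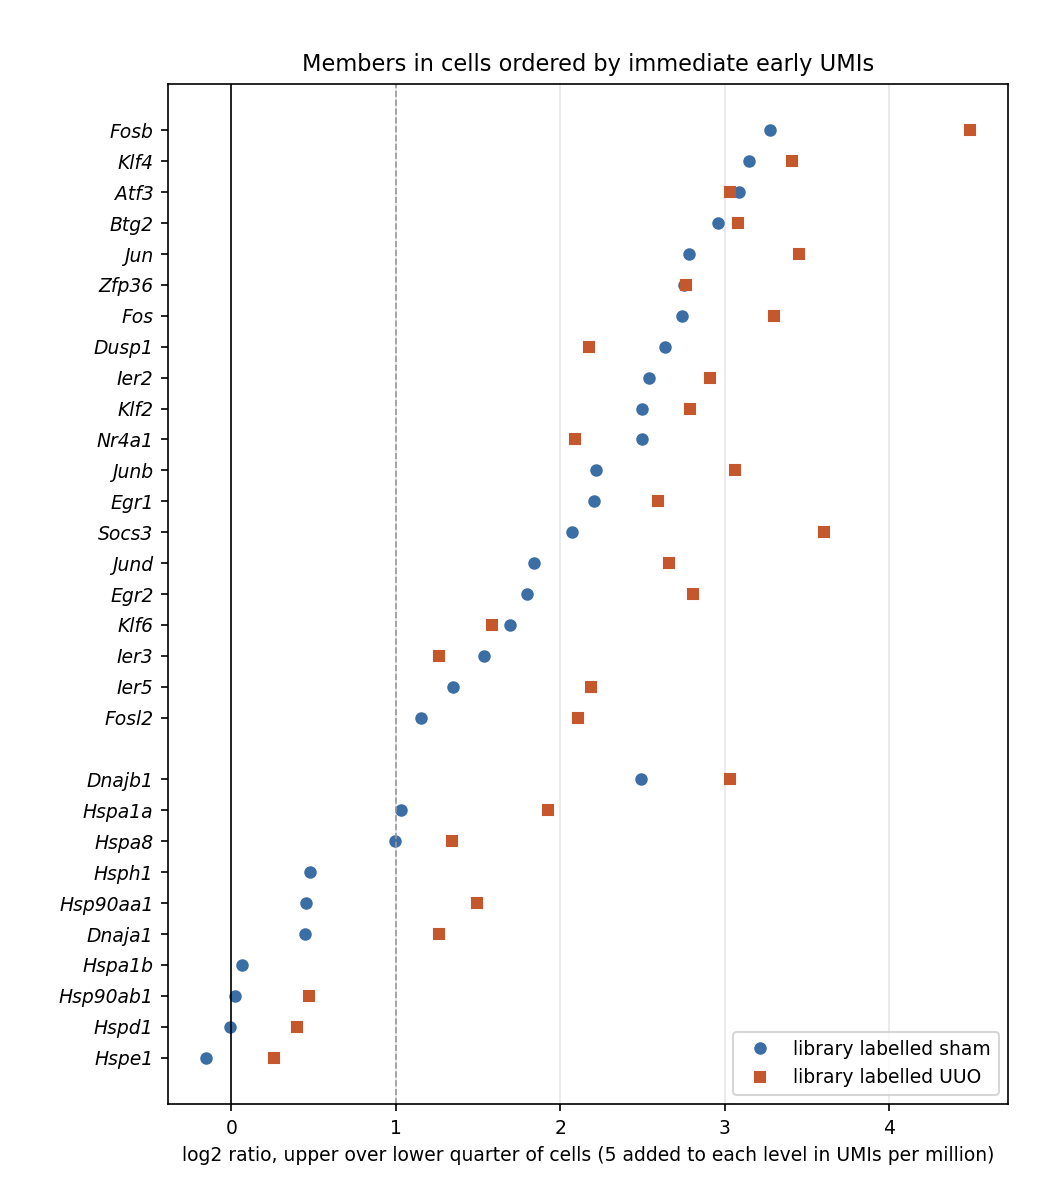
Log2 ratio of each member's level in the upper over the lower quartile of fibroblast-like cells, ordered by the immediate early UMIs of the other members, in the library labelled sham (circles) and UUO (squares). The dashed line marks 2-fold, and members with too few UMIs in a library are not drawn for it. Every immediate early member lies beyond 2-fold, while Hspe1, Hspd1 and Hsp90ab1 lie near 0 in the library labelled sham.

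Across cell classes of the library labelled sham, the immediate early sum was highest in endothelial-like cells, at 22784 CPM (374 cells). Pericyte- or smooth muscle-like cells (48 cells) stood at 17397 CPM, fibroblast-like cells at 16642 CPM and macrophage- or dendritic-like cells (324 cells) at 15469 CPM. T- or NK-like cells (33 cells) stood at 10308 CPM, and cells like loop, distal tubule or collecting duct (246 cells) at 8775 CPM. The heat shock sum was also highest in endothelial-like cells, at 5016 CPM, and lowest in fibroblast-like cells, at 3399 CPM. Single members were highest in endothelial-like cells most often, 15 of 31. The same count was not made over all genes, so whether this is particular to the members was not tested.

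Against fibroblast-like cells of the same library, 4 of 20 immediate early members stood higher by 2-fold or more in endothelial-like cells labelled sham, against 10.8% of 9508 genes, and 1 was lower, against 9.48%. Klf2 was at 2754 CPM against 1076 CPM, 2.56-fold higher (2.48 to 2.64), and Atf3 at 371 CPM against 106 CPM, 3.49-fold higher (3.21 to 3.79). Ier5 was at 365 CPM and Klf4 at 555 CPM, and Egr2, the lower gene, at 33.6 CPM against 109 CPM. No heat shock member was 2-fold higher by this count. Macrophage- or dendritic-like cells had the highest Atf3, at 525 CPM, 4.94-fold above fibroblast-like cells (4.61 to 5.29). With Ier5 at 450.0 CPM and Klf6 at 406 CPM, 3 of 20 immediate early members were at least 2-fold higher there, against 9.53% of 9254 genes.

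Cells like loop, distal tubule or collecting duct, which are epithelial, had 8 of 20 immediate early members at least 2-fold lower, against 11.9% of 9727 genes. Those were Fos, Junb, Egr2, Ier2, Dusp1, Nr4a1, Klf2 and Socs3, with Dusp1 at 338 CPM, 3.28-fold lower (3.08 to 3.50), and Fos at 1482 CPM. Atf3, at 319 CPM, and Klf6, at 452 CPM, were at least 2-fold higher, 2 of 20 against 11.4%. Of the heat shock members, Hsph1 was higher, at 31.0 CPM, and Hspa1a lower, at 201 CPM. The median mitochondrial share was 5.0006% in these cells and 2.18% in fibroblast-like cells, and its part was not tested.

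Within the library labelled UUO, 4 classes had at least 30 cells. The immediate early sum was 19859 CPM in fibroblast-like, 17815 CPM in endothelial-like (72 cells), 12129 CPM in pericyte- or smooth muscle-like (37 cells) and 4026 CPM in proximal tubule-like cells (78 cells). Fibroblast-like cells thus led here, and endothelial-like cells in the library labelled sham. The heat shock sum was highest in endothelial-like cells, at 7723 CPM, and near level in the others, at 4892, 4942 and 4866 CPM. Endothelial-like cells had Hspa1a at 2430.1 CPM against 714 CPM in fibroblast-like cells, 3.40-fold higher (3.15 to 3.67), and Klf2 at 1878 CPM, 2.87-fold higher (2.63 to 3.12). These were the single heat shock and single immediate early member at least 2-fold higher, against 12.8% of 10448 genes, and Egr1 and Egr2 were at least 2-fold lower, against 12.1%.

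In proximal tubule-like cells all 20 measured immediate early members were at least 2-fold lower than in fibroblast-like cells, against 27.4% of 10276 genes. The sum was 4.93-fold lower (4.69 to 5.19), with Fos at 591 CPM, Junb at 612 CPM and Klf4 at 38.9 CPM. The heat shock list split: the mitochondrial Hspe1, at 1084 CPM, and Hspd1, at 454 CPM, were 3.90-fold (3.48 to 4.36) and 3.91-fold (3.27 to 4.66) higher, 2 of 10 against 16.0% of genes. Hspa1a, at 189 CPM, and Dnajb1, at 129.6 CPM, were at least 2-fold lower. These cells had a median of 2001 UMIs, against 4844 in fibroblast-like cells, and the part of depth was not tested.

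**Figure D5:**
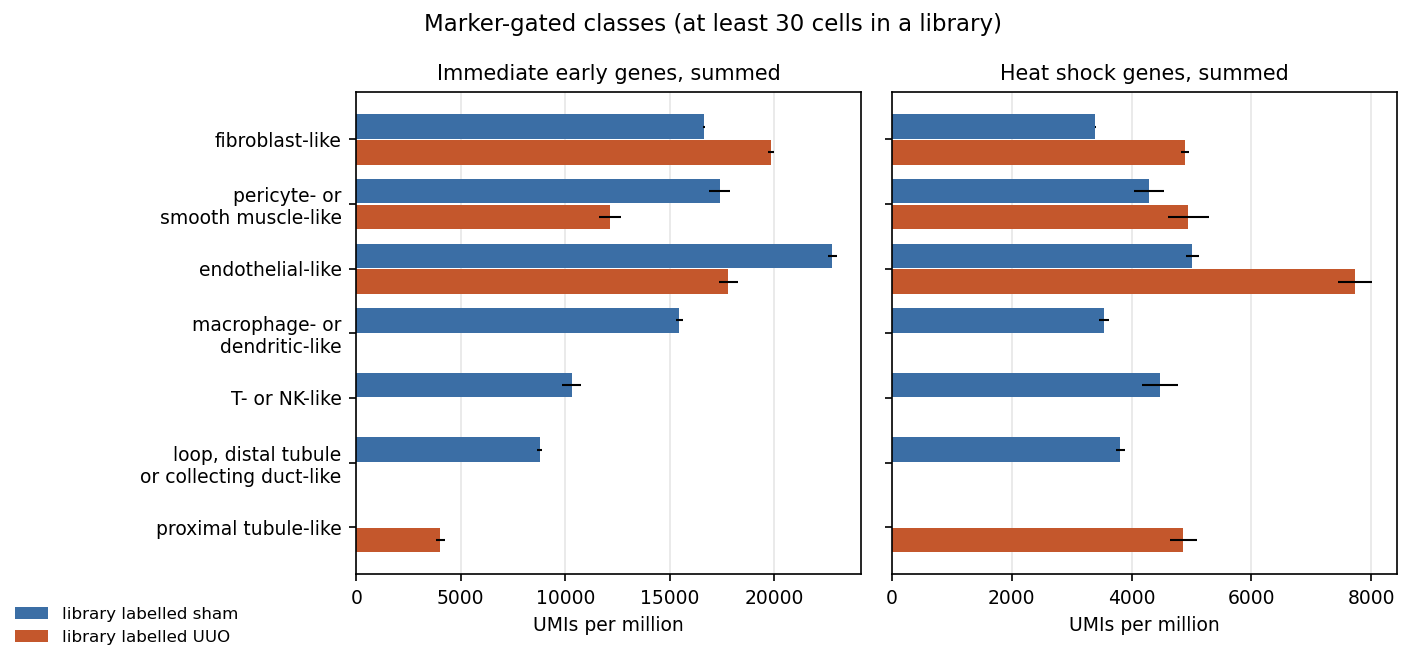
Summed CPM of the immediate early (left) and heat shock (right) genes by marker-gated class in the library labelled sham and UUO, with exact Poisson 95% intervals. Classes with under 30 cells in a library are not drawn for it. Endothelial-like cells labelled sham reach 22784 CPM for the immediate early genes, and proximal tubule-like cells labelled UUO stand at 4026 CPM.

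Both libraries held cells with Xist and no Y-linked UMI and cells with a Y-linked UMI and no Xist, 5257 and 1497 among fibroblast-like cells labelled sham and 190 and 200 among those labelled UUO. Another 1174 and 68 cells had both, and the part of free RNA or doublets in this split was not tested. In cells labelled UUO, Hsph1 was at 52.1 CPM in Xist cells and 16.4 CPM in Y cells, 3.18-fold (1.96 to 5.33). It was the single member at least 2-fold higher in Xist cells, against 0.734% of 9535 genes. Hspa1a was at 1061 and 619 CPM and Dnajb1 at 566 and 339 CPM. Among cells labelled sham the same genes were close, with Hsph1 at 11.8 and 13.6 CPM and Hspa1a at 533 and 467 CPM. In Y cells alone, Hsph1 stood at 13.6 CPM in the library labelled sham and 16.4 CPM in the library labelled UUO, whereas in Xist cells it stood at 11.8 and 52.1 CPM. How many animals stand behind either set of cells is not known from the files.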

How the data were processed

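Single-cell RNA was measured in 2 libraries, 1 per group, so groups were compared with no test. The authors deposited estimated counts of UMIs per gene and barcode, made with alevin of Salmon 0.13.1 against mm10 per the submitters' processing notes. These estimated counts were summed over cells as deposited, and the sums were rounded to whole numbers. For the thinned cells, the values of each cell were rounded before thinning. As deposited, 92.3% and 91.2% of the values were whole within 1e-06. Rules for choosing barcodes are not given in the sources used here.

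Kept barcodes had 500 or more UMIs, 300 or more genes and up to 20% mitochondrial UMIs. Libraries held 85359332 UMIs (labelled sham) and 6023072 (labelled UUO). Classes were gated on summed marker levels. Cells that passed the gates of 2 classes other than fibroblast were set apart. So were cells that passed 1 such gate, pericyte or smooth muscle excepted, with a fibroblast marker share at least 0.5 times the mean of both libraries. Together these were 123 and 14 cells. No doublet caller was used in the main values. Levels are CPM of summed UMIs, with exact Poisson intervals for a level and exact conditional binomial intervals for a ratio. Calls are at least 2-fold after adding 5 CPM, among genes with at least 10 CPM in either group compared. Python 3.11.15, NumPy 2.4.6, SciPy 1.17.1 and pandas 2.3.3 were used, and edgeR 4.0.16 in R 4.3.3 gave TMM factors for an alternative. Gene positions are those of GENCODE M21 (GRCm38), to which all 31 identifiers matched without version. The code was tested on simulated data.

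The members, lists, markers and subgroups were chosen with earlier results of these data known. Members with at least 200 CPM or a 2-fold difference are given in full. Other lists are given by their 3 highest and 3 lowest genes of at least 10 CPM, and further genes by a place among the 30 highest ratios in both libraries at 20 CPM or more. Some genes that this rule names are not reported here. Alternatives changed the added CPM, the filter, the scaling, the cell weighting, the cell filters, the gates, doublet removal and the cells included.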

Additional observations from a re-analysis of the deposited data

Results flagged for a closer look

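The immediate early sum differed between the libraries in opposite directions by fibroblast subgroup. On the log2 scale with 5 CPM added, the difference of the library labelled UUO from the library labelled sham was -1.17 in the Clca3a1 Agtr1a subgroup and -1.49 in the Igfbp3 Adamts5 Fbln5 subgroup. It was 0.31 in the Ptx3 C3 Sfrp4 subgroup and 0.13 in cells of no subgroup. Each rests on 1 library a group, and the difference between subgroups was not tested. The Igfbp3 subgroup had 24 cells in the library labelled sham, with a median of 2684.5 UMIs and 3.83% mitochondrial share. Its medians in the library labelled UUO were 3676 UMIs and 2.11%.

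The immediate early sum also went opposite ways with depth. The log2 difference of the deepest from the shallowest quartile of fibroblast-like cells was -0.47 for cells labelled sham and 0.83 for cells labelled UUO. With stricter gates for fibroblast-like cells the latter was 0.33. The difference between these trends was not tested.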

How the results depend on the processing

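No paired analysis was possible because each group has 1 library. Differences below are log2, and the cause of each move was not tested.

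Between libraries in fibroblast-like cells, the count of immediate early members at least 2-fold lower went from 1 to 0 with 20 CPM added, with a stricter fibroblast gate, and in Xist or Y cells alone. The count at least 2-fold higher went from 1 to 2 with the stricter gate. The count of heat shock members at least 2-fold higher went from 2 to 1 with 20 CPM added, a 50 CPM filter, TMM factors, or Y cells alone. The immediate early median of 0.22 changed sign under TMM factors (-0.0599) and the mean of per-cell CPM (-0.0433). It was 0.53 with the stricter gate, 0.0696 over all kept cells, 0.16 in fibroblast-like Leiden clusters and 0.11 in Xist cells. The heat shock median of 0.60 was 0.52 with a 50 CPM filter, 0.33 with TMM factors, 0.34 with the mean of per-cell CPM and 0.77 with the stricter gate. It was 0.69 over all kept cells, 0.89 in Xist cells, 0.35 in Y cells and 0.46 with whole values only. Over all genes, 1179 were higher and 473 lower, against 509 and 210 with 20 CPM added, 445 and 240 with a 50 CPM filter, and 917 and 759 with TMM factors. The stricter gate moved the share of higher genes among those 2-fold apart from 71.4% to 60.2%.

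Doublet scores were the share of simulated doublets among the nearest neighbours of a cell. For the immediate early sum against fibroblast-like cells, removing the highest doublet scores moved endothelial-like cells from 0.45 to 0.51 (labelled sham) and from -0.16 to -0.0454 (labelled UUO). Stricter class gates moved the latter to -0.35. Loop-like cells went from -0.92 to -0.9974 with stricter gates, -0.95 without high doublet scores and -0.83 with totals free of mitochondrial, haemoglobin and ribosomal protein genes. Proximal tubule-like cells went from -2.30 to -2.71 with stricter gates.

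By mitochondrial share in the library labelled sham, the immediate early difference of 0.41 was 0.28 with stricter gates, 0.47 without high doublet scores, 0.36 with the other totals, and -0.11 split at the library median. The heat shock difference of 0.25 was -0.0393 in that split. In the library labelled UUO, the immediate early -0.82 was -0.66 with stricter gates and -0.60 split at the median. By depth in the library labelled sham, the immediate early -0.47 was -0.39 with stricter gates, -0.55 without high doublet scores, -0.43 with the other totals and -0.37 in depth tertiles. The heat shock -0.04 was 0.0064 with the other totals. In the library labelled UUO, 0.83 was 0.33 with stricter gates.

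For cells ordered by immediate early UMIs, the members' median of 2.495 (labelled sham) was 2.20 with stricter gates and 2.69 without thinning, and the heat shock median of 0.455 was 0.54 and 0.52. In the library labelled UUO the heat shock median of 1.248 was 0.9988 with stricter gates. The small number of cells in a subgroup, 24 labelled sham for Igfbp3, limits the precision of its values.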
